A study of Homo sapiens with 12 samples.

Results

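The AKR1 genes described here are 8 members of the aldo-keto reductase family, AKR1A1, AKR1B1, AKR1B10, AKR1C1, AKR1C2, AKR1C3, AKR1C4 and AKR1D1, taken by name from the 58381 genes of the count tables. All 8 symbols were found. RNA was sequenced from VCaP, a human prostate cancer line from a bone metastasis with the TMPRSS2-ERG fusion. VCaP-T cells (passage 84) were kept in 10 nM testosterone (T), and VCaP-CT cells (passage 73) were derived from them by long culture in 0.1 nM T, so that each line stands for 1 derivation. Each line was sampled in its own medium and after 48 h in the medium of the other line, which gives 4 groups of 3 libraries. These are called VCaP-T at 10 nM T, depleted VCaP-T cells (0.1 nM T), VCaP-CT at 0.1 nM T and rechallenged VCaP-CT cells (10 nM T). All were grown in charcoal-stripped serum, from which most steroids are removed, so that T was the androgen added.

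Aldo-keto reductases use NADPH to turn aldehydes and ketones into alcohols. The AKR1C enzymes act on steroids. AKR1C3 makes T from androstenedione and also forms prostaglandins, whereas AKR1C1 and AKR1C2 reduce dihydrotestosterone to weaker androgens, and AKR1C4 serves bile acid and steroid metabolism in the liver. AKR1D1 is the hepatic steroid 5-beta-reductase, AKR1B1 is aldose reductase of the polyol pathway, AKR1B10 reduces retinal and other aldehydes, and AKR1A1 is a broadly expressed aldehyde reductase.

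The 4 AKR1C genes lie in a row on chromosome 10 and resemble each other closely, which bears on how short reads could be assigned to them. In GRCh38, AKR1C1 spans chr10:4963253-4983283 on the plus strand, AKR1C2 chr10:4987400-5018031 on the minus strand, AKR1C3 chr10:5035354-5107686 on the plus strand and AKR1C4 chr10:5195462-5218949 on the plus strand. AKR1B1 (chr7:134442350-134459284, minus), AKR1B10 (chr7:134527592-134541408, plus) and AKR1D1 (chr7:138002324-138117986, plus) are on chromosome 7, and AKR1A1 is at chr1:45550543-45570049 on the plus strand. The exons of no member overlapped another annotated gene. The coding exon 5 of the 4 AKR1C genes has the same length of 123 bases in each, and is shown to let the genes be compared. It is read 5′ to 3′ from the reference genome, and the capitals mark the 9 positions at which the genes are not all alike. The coordinates are chr10:4968822-4968944 (plus) for AKR1C1, chr10:4998625-4998747 (minus) for AKR1C2, chr10:5099327-5099449 (plus) for AKR1C3 and chr10:5206275-5206397 (plus) for AKR1C4.
AKR1C1: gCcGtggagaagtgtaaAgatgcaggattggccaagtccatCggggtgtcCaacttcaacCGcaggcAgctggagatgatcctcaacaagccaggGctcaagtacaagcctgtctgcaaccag
AKR1C2: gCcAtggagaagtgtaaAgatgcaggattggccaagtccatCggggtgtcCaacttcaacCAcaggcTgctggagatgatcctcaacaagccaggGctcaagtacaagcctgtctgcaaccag
AKR1C3: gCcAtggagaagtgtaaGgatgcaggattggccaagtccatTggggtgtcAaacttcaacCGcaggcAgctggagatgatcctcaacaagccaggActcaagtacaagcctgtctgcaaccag
AKR1C4: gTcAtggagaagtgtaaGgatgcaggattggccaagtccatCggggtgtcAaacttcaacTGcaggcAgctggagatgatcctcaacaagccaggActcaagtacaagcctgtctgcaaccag

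AKR1C1 and AKR1C2 differed at 3 of these 123 bases, as did AKR1C3 and AKR1C4, and AKR1C2 and AKR1C4 were the least alike with 7 differences. Over all exons, 27.4% of the 75-base stretches of AKR1C1 and 32.5% of those of AKR1C2 had an exact copy elsewhere in the genome, where 75 bases is the length of 1 read. For AKR1C2, 1661 of the 1725 repeated stretches had a copy in AKR1C1. The share was 3.52% for AKR1C3, 4.26% for AKR1C4, 6.62% for AKR1B1, 5.33% for AKR1B10, 0.830% for AKR1A1 and 0.0904% for AKR1D1. Read pairs that mapped to more than 1 place were not counted, so pairs from repeated stretches whose mates did not settle their place are missing from the AKR1C1 and AKR1C2 counts, and these levels are less certain than that of AKR1C3.

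**Figure D1:**
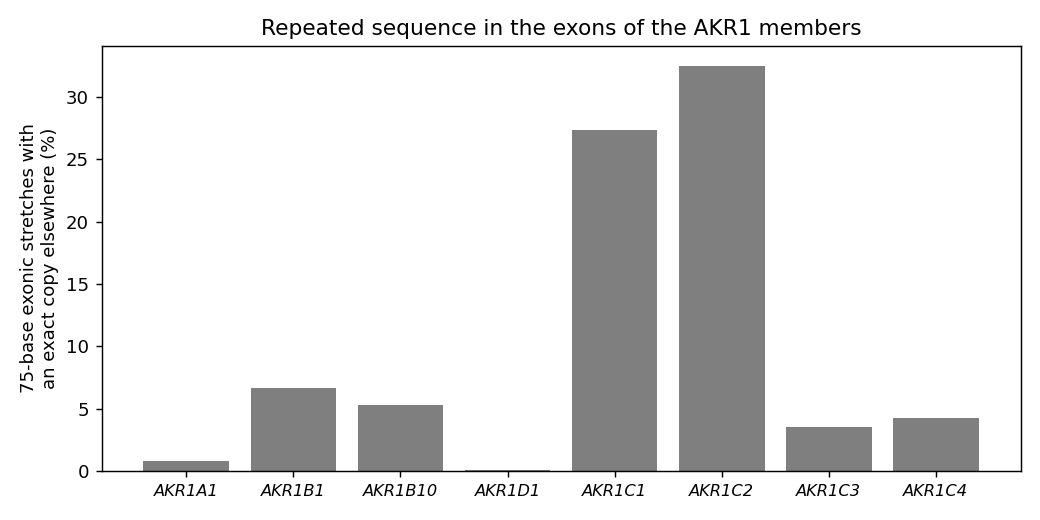
Share of 75-base stretches in the exons of each AKR1 gene (vertical axis, percent) that have an exact copy elsewhere in GRCh38 on either strand. AKR1C1 (27.4%) and AKR1C2 (32.5%) stand above the other 6 genes, which lie between 0.0904% and 6.62%.

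The likeness of AKR1C1 and AKR1C2 also held in the bases before their RefSeq starts. RefSeq promoters were given for 7 of the 8 members. The bases before the RefSeq start of AKR1C1 aligned over 246 bases with those of AKR1C2 and differed at 1 of them. The AKR1C1 stretch (chr10:4963169-4963414, plus strand, RefSeq, GRCh38.p14) is shown with the base that differs in AKR1C2 in capitals.
AKR1C1 upstream: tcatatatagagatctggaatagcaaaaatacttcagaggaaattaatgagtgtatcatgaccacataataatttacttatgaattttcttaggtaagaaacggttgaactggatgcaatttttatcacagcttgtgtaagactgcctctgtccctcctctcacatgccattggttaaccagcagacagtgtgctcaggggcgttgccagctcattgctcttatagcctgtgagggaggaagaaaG

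The corresponding AKR1C2 bases lie at chr10:5003862-5004107 on the minus strand. They fall within the span of AKR1C2 given above, and the AKR1C1 stretch runs past the AKR1C1 start given above (chr10:4963253). How much of either stretch is exonic was not checked. The upstream bases of AKR1C3 were 76.8% and 78.6% identical, over the bases aligned, with those of AKR1C1 for its first and its second listed start. No promoter of a member held AGAACA, an arm of the androgen response element, or TGACNNNGC, the core of the antioxidant response element bound by NRF2, on either strand in the 300 bases listed. Of all 35116 listed promoters, 14.8% held the first and 13.3% the second.

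The libraries held 30.2 to 40.8 M counted fragments (M, 1000000), and 19162 genes passed the filter on low counts. Of the 8 members, 5 passed it (AKR1A1, AKR1B1, AKR1C1, AKR1C2 and AKR1C3), and AKR1B10, AKR1C4 and AKR1D1 did not. The luminal prostate markers KLK3 and TMPRSS2 were detected in every group, with group means of 1669 to 78770 and of 3522 to 13287 normalized read counts, and the 4 leukocyte markers summed to at most 28.4. The 4 basal markers, of which 2 passed the filter, summed to 418 to 479 in VCaP-T cells at 10 nM T and to 50.2 to 156 in the other groups. Most of that sum was KRT14 and KRT15, and the means of KRT5 and TP63 were at most 3.81 in any group. The 6 hepatocyte markers summed to 401 to 434 in VCaP-T cells at 10 nM T and 1505 to 2065 after depletion. They summed to 2315 to 2440 in VCaP-CT cells at 0.1 nM T and 626 to 669 after rechallenge. Most of the hepatocyte sum was ALB (means 226, 1247, 1713 and 295 in that order of groups) and TTR (135, 382, 655 and 322). SERPINA1 was lower in both VCaP-CT groups (57.4, 78.1, 16.8 and 32.8). APOA1, CYP3A4 and FGB had means of at most 3.32 in any group. One library stood apart: VCaP-T at 0.1 nM T, replicate 2, correlated with its 2 sister libraries at r = 0.959 and 0.964 over genes, against at least 0.992 for all other pairs within groups. Most fold changes of members that involve its group, the gene lists and most shares over all genes are therefore given with and without it. Leaving it out raised the number of genes tested to 19649 and the share of them that passed the test in each comparison below, for instance from 9.97% to 27.1% on depletion. Nothing in the labels says that replicates came from separate cultures, and every p-value below sets a difference against a spread between libraries that may be technical. In such bulk RNA, fewer cells with a transcript and less of it per cell cannot be told apart.

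Below, levels are read counts normalized to a common library size, and a gene rose, fell or differed where its adjusted p was under 0.01. A gene was called where its log2 fold change was also beyond 1 and its group medians were more than 13 normalized read counts apart. Depletion is the move of VCaP-T cells from 10 to 0.1 nM T, and rechallenge the move of VCaP-CT cells from 0.1 to 10 nM T.

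AKR1C3, the androgen-forming member, gave the clearest response to T. It rose when T was withdrawn from VCaP-T cells and fell when T was returned to VCaP-CT cells, and it was lower in VCaP-CT than in VCaP-T cells in every comparison of the lines. The AKR1C3 level was 152, 149 and 184 normalized read counts in VCaP-T cells at 10 nM T, and 547, 1042 and 592 after 48 h at 0.1 nM T. All depleted libraries lay above all libraries at 10 nM T, as 38.0% of all tested genes had groups that did not overlap (58.6% without the library that stood apart), and the highest was the library that stood apart. On depletion AKR1C3 rose by 2.16 ± 0.22 (SE) on the log2 scale, that is 4.48-fold (adjusted p = 4.2e-05), and by 1.81 ± 0.10 without that library (adjusted p = 1.4e-10). It was the single member called in that comparison, in which 2.46% of all tested genes were called higher (2.98% without that library), and it ranked 112 of 19162 genes by increase.

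In VCaP-CT cells the AKR1C3 level was 58.2, 71.0 and 62.1 at 0.1 nM T, and 19.7, 24.9 and 22.4 after 48 h at 10 nM T. The groups did not overlap, as for 55.7% of all tested genes. On rechallenge AKR1C3 fell by 1.50 ± 0.30 on the log2 scale (2.83-fold lower, adjusted p = 0.0033). It was again the single member called, where 3.3% of all genes were called lower (3.84% without the library that stood apart). The call was lost without VCaP-CT at 0.1 nM T replicate 2 (fold change −1.42, adjusted p = 0.014) and without any 1 of the rechallenged libraries (−1.42, −1.59 and −1.50 without replicates 1, 2 and 3, adjusted p = 0.017, 0.012 and 0.016). Over all 12 fits with 1 library left out, the log2 fold change lay between −1.59 and −1.42. The adjusted p of these fits ranged from 3.0e-06 to 0.017.

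The lowest AKR1C3 level thus stood in rechallenged VCaP-CT cells, followed by VCaP-CT at 0.1 nM T, VCaP-T at 10 nM T and depleted VCaP-T cells, and each neighbour in that order differed by the test. Between the lines in their own media, AKR1C3 was 2.54-fold lower in VCaP-CT cells (log2 fold change −1.34 ± 0.24, adjusted p = 0.00071). At the same T concentration the gap was wider, with a log2 fold change of −3.51 ± 0.24 at 0.1 nM T (adjusted p = 3.1e-07) and −2.84 ± 0.28 at 10 nM T (adjusted p = 9.3e-06). Without the library that stood apart, the fold change at 0.1 nM T was −3.15 ± 0.12. The summed level of the 5 fibroblast markers, of which 1 passed the filter, stood in the same order of groups as AKR1C3, at 13.5 to 21.3 in rechallenged VCaP-CT cells, 51.3 to 61.1 in VCaP-CT at 0.1 nM T, 172 to 243 in VCaP-T at 10 nM T and 306 to 444 in depleted VCaP-T cells. Nearly all of it was COL1A1. The means of COL3A1, DCN, COL1A2 and PDGFRA were at most 4.42 in any group, and COL1A2 and DCN were at 0 in both groups at 10 nM T. The response to 10 against 0.1 nM T was not shown to differ between the lines (difference of −0.66 ± 0.38 on the log2 scale, adjusted p = 0.42; −0.31 ± 0.23 and adjusted p = 0.43 without the library that stood apart).

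**Figure D2:**
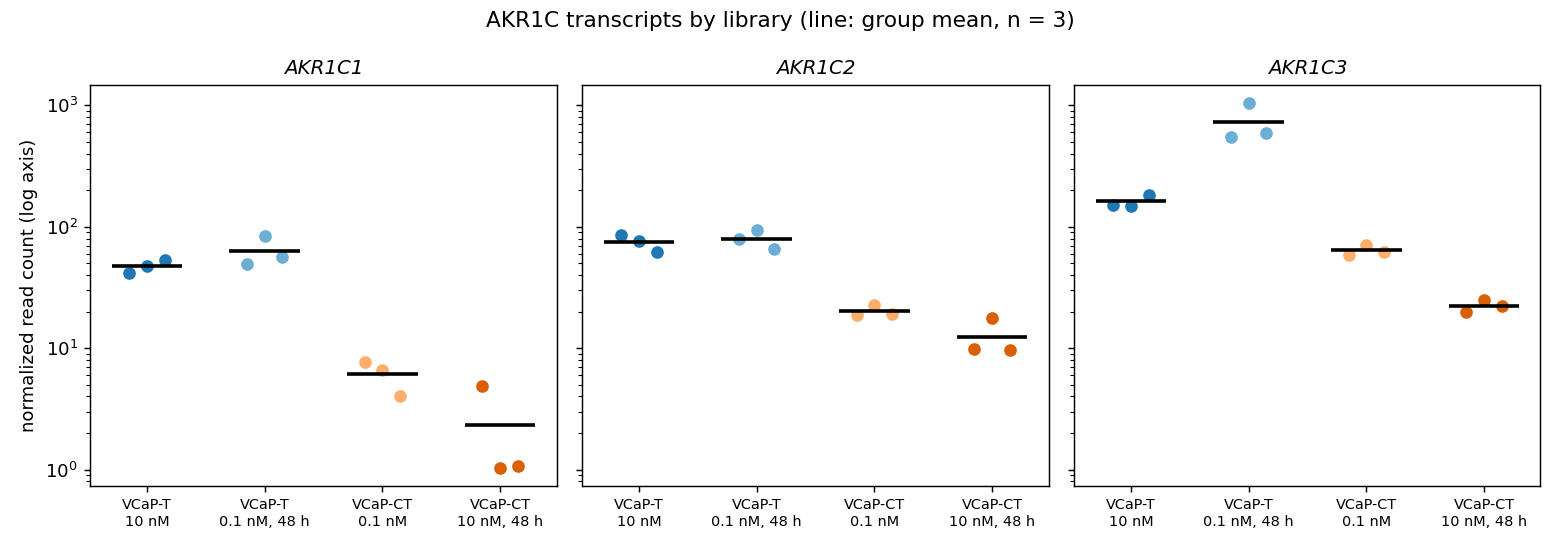
Normalized read counts (vertical axis, log scale) of AKR1C1, AKR1C2 and AKR1C3 in each of the 3 libraries (points) of the 4 groups (horizontal axis), with the group mean as a line. All 3 genes are lower in VCaP-CT than in VCaP-T libraries, and AKR1C3 also climbs to between 547 and 1042 in depleted VCaP-T cells.

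AKR1C1 and AKR1C2, which inactivate dihydrotestosterone, differed between the lines but did not pass the test on depletion or rechallenge. AKR1C1 stood at 41.4, 47.5 and 53.1 normalized read counts in VCaP-T cells at 10 nM T and at 49.2, 84.0 and 56.7 after depletion. In VCaP-CT cells it stood at 7.70, 6.63 and 4.01 at 0.1 nM T and at 4.92, 1.04 and 1.07 after rechallenge, the last 2 values being 1 read pair each. VCaP-CT and VCaP-T libraries did not overlap, whereas the groups within each line did. Groups that did not overlap were found for 69.0% of all tested genes in the own media, 52.3% at 0.1 nM T (73.9% without the library that stood apart) and 61.7% at 10 nM T. Between the lines in their own media the AKR1C1 log2 fold change was −2.91 ± 0.35 (adjusted p = 3.3e-05), which is 7.54-fold lower in VCaP-CT cells. It was −3.31 ± 0.34 at 0.1 nM T and −4.34 ± 0.44 at 10 nM T (adjusted p = 1.1e-05 in both). Without the library that stood apart the value at 0.1 nM T was −3.06 ± 0.31, and without rechallenged replicate 1, which held 4 of the 6 read pairs of its group, the value at 10 nM T was −5.34 (adjusted p = 2.3e-05). The depletion change was 0.40 ± 0.26 (adjusted p = 0.29; 0.15 ± 0.22 without the library that stood apart) and the rechallenge change was −1.43 ± 0.61 (adjusted p = 0.12). The rechallenge change ranged from −2.42 without rechallenged replicate 1 (adjusted p = 0.039) to −1.08 without replicate 2 (adjusted p = 0.32), and did not pass the test in any of these fits. It rests on 6 read pairs against 20, a ratio of 0.356 with an exact 95% binomial interval of 0.117 to 0.920. This interval covers counting error only.

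AKR1C2 was found at 86.0, 76.1 and 62.2 in VCaP-T cells at 10 nM T and at 79.3, 93.8 and 66.0 after depletion, and these groups overlapped. Its level was 18.8, 22.7 and 19.03 in VCaP-CT cells at 0.1 nM T and 9.84, 17.7 and 9.60 after rechallenge. Each rechallenged library lay below each library at 0.1 nM T, as 55.7% of all tested genes had groups that did not overlap there. The change of −0.69 ± 0.29 did not pass the test (adjusted p = 0.12). AKR1C2 was 3.68-fold lower in VCaP-CT than in VCaP-T cells in their own media (log2 fold change −1.88 ± 0.23, adjusted p = 3.9e-05). The fold change was −1.97 ± 0.23 at 0.1 nM T (adjusted p = 2.9e-05; −1.85 ± 0.23 without the library that stood apart) and −2.57 ± 0.26 at 10 nM T (adjusted p = 9.8e-06). On depletion it was 0.09 ± 0.20 (adjusted p = 0.78), and −0.03 without the library that stood apart.

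AKR1C1, AKR1C2 and AKR1C3 were thus all called lower in VCaP-CT cells in the own media, at 0.1 nM T and at 10 nM T, where 7.06%, 8.68% and 7.08% of all genes were called lower (7.49%, 9.1% and 7.74% without the library that stood apart). Because AKR1C1 and AKR1C2 share sequence, the counts of the 4 AKR1C genes were also summed, a choice made after the data were seen. The AKR1C sum was 279, 273 and 300.1 in VCaP-T cells at 10 nM T, 677, 1221 and 717 after depletion, 84.7, 100.3 and 85.2 in VCaP-CT cells at 0.1 nM T and 35.7, 43.6 and 33.1 after rechallenge. It rose by 1.61 ± 0.20 on depletion (adjusted p = 0.00017; 1.29 ± 0.09 and adjusted p = 1.4e-09 without the library that stood apart) and fell by 1.26 ± 0.25 on rechallenge (adjusted p = 0.0035). Its log2 fold change between the lines in their own media was −1.66 ± 0.21 (adjusted p = 5.7e-05). In fragments per kilobase of exon per M fragments (FPKM), AKR1C3 was the most abundant of the AKR1C genes in every group, with a mean level from 0.140 in rechallenged VCaP-CT cells to 4.55 in depleted VCaP-T cells. AKR1C2 had 0.0543 to 0.350 and AKR1C1 0.00758 to 0.205 on that scale. It divides by all annotated exon bases (8765 for AKR1C1, 6461 for AKR1C2 and 4532 for AKR1C3) and leaves out the pairs not counted. The ranking between genes is therefore less certain. In rechallenged VCaP-CT cells the mean normalized read counts were 22.3 for AKR1C3 and 12.4 for AKR1C2.

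AKR1C4 was close to the detection limit. Its read pairs were 0, 0 and 1 in VCaP-T cells at 10 nM T, 2, 1 and 2 after depletion, none in VCaP-CT cells at 0.1 nM T and 1, 0 and 0 after rechallenge. A count of 3 corresponds to 2.504 to 3.704 normalized read counts in these libraries, so that no library exceeded it. AKR1D1 was as sparse, with 0 to 3 read pairs per library in the first 3 groups and 6, 2 and 5 in rechallenged VCaP-CT cells. The AKR1D1 total of 13 read pairs after rechallenge, against 5 at 0.1 nM T, corresponds to a ratio of 3.09 with an exact 95% binomial interval of 1.03 to 11.1. That interval covers counting error only and is no test between groups.

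AKR1B1, aldose reductase, was scarce and had higher counts at 10 than at 0.1 nM T in both lines. Its read pairs per library were 9, 11 and 12 in VCaP-T cells at 10 nM T and 2, 0 and 3 after depletion. In VCaP-CT cells they were 0, 0 and 1 at 0.1 nM T and 9, 3 and 12 after rechallenge. The groups did not overlap in either line, as for 38.0% of all tested genes on depletion and 55.7% on rechallenge. The rechallenge increase passed the test (adjusted p = 0.0052), with 24 read pairs against 1, a ratio of 28.5 with an exact 95% binomial interval of 4.65 to 1173. It no longer passed without any 1 of the VCaP-CT libraries at 0.1 nM T or without rechallenged replicate 1 or 3 (adjusted p from 0.013 to 0.028). The depletion decrease from 32 to 5 read pairs, a ratio of 0.162 with an interval of 0.0493 to 0.419, did not pass (adjusted p = 0.022, and 0.016 without the library that stood apart). AKR1B1 was lower in VCaP-CT than in VCaP-T cells in their own media, with 1 read pair against 32 (ratio 0.0299, interval 0.000735 to 0.179, and adjusted p = 0.0014 by the test). The binomial intervals given for AKR1B1 cover counting error only, not the spread between libraries. At 0.1 nM T the log2 fold change between the lines was −2.05 ± 1.29 (adjusted p = 0.22), and −3.84 to −1.35 with 1 library left out. At 10 nM T the log2 fold change between the lines was −0.22 ± 0.51 (adjusted p = 0.77). Both errors are wide. AKR1B1 was called in none of these comparisons, and its group medians lay fewer than 13 normalized read counts apart in each. On depletion and between the lines at 0.1 and at 10 nM T it also did not pass the test.

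AKR1B10, its neighbour on chromosome 7, had 0 read pairs in every VCaP-T library at 10 nM T, and 1, 0 and 2 after depletion. It had 0, 1 and 0 in VCaP-CT cells at 0.1 nM T and 1, 3 and 3 after rechallenge. The 7 read pairs after rechallenge against 1 before gave a ratio of 8.32 with an interval of 1.07 to 375, in a gene that was not tested. That interval also covers counting error only and is no test between groups.

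AKR1A1, the general aldehyde reductase, was by far the most abundant member, with a mean of 33.6 to 52.7 FPKM. Its level was 3697, 3698 and 3686 normalized read counts in VCaP-T cells at 10 nM T and 4071, 6717 and 4152 after depletion. It was 5821, 5852 and 5402 in VCaP-CT cells at 0.1 nM T and 5952, 5548 and 5889 after rechallenge. VCaP-CT libraries thus lay above those of VCaP-T at 10 nM T, and depleted libraries lay between them apart from replicate 2. Groups did not overlap for 69.0% of all tested genes in the own media and 61.7% at 10 nM T. On depletion this share was 38.0% (58.6% without the library that stood apart). AKR1A1 was 1.54-fold higher in VCaP-CT than in VCaP-T cells in their own media (log2 fold change 0.62 ± 0.15, adjusted p = 0.0062), where 14.8% of all genes were higher by the test. At 10 nM T it was 1.57-fold higher (0.65 ± 0.15, adjusted p = 0.0057), where 12.0% of all genes were higher. Without the library that stood apart, these shares of all genes were 26.7% and 24.7%. At 0.1 nM T the change was 0.19 ± 0.15 (adjusted p = 0.34), but 0.47 ± 0.05 (adjusted p = 1.0e-07) without the library that stood apart. Neither depletion (0.43 ± 0.15, adjusted p = 0.067; 0.15 ± 0.05 and adjusted p = 0.016 without that library) nor rechallenge (0.03 ± 0.15, adjusted p = 0.93) passed the test. The difference in the own media no longer passed when any 1 library of VCaP-T at 10 nM T, VCaP-CT at 0.1 nM T or rechallenged VCaP-CT cells was left out (fold changes 0.60 to 0.66, adjusted p from 0.010 to 0.023). That at 10 nM T no longer passed without any 1 of the 3 VCaP-T libraries at 10 nM T, of the 3 rechallenged libraries, or VCaP-CT at 0.1 nM T replicate 1 (0.63 to 0.68, adjusted p from 0.010 to 0.023). Without the library that stood apart, whose group is in neither comparison, both differences passed. The fold changes were then 0.63 ± 0.04 in the own media (adjusted p = 2.8e-10) and 0.65 ± 0.04 at 10 nM T (adjusted p = 2.3e-10).

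**Figure D3:**
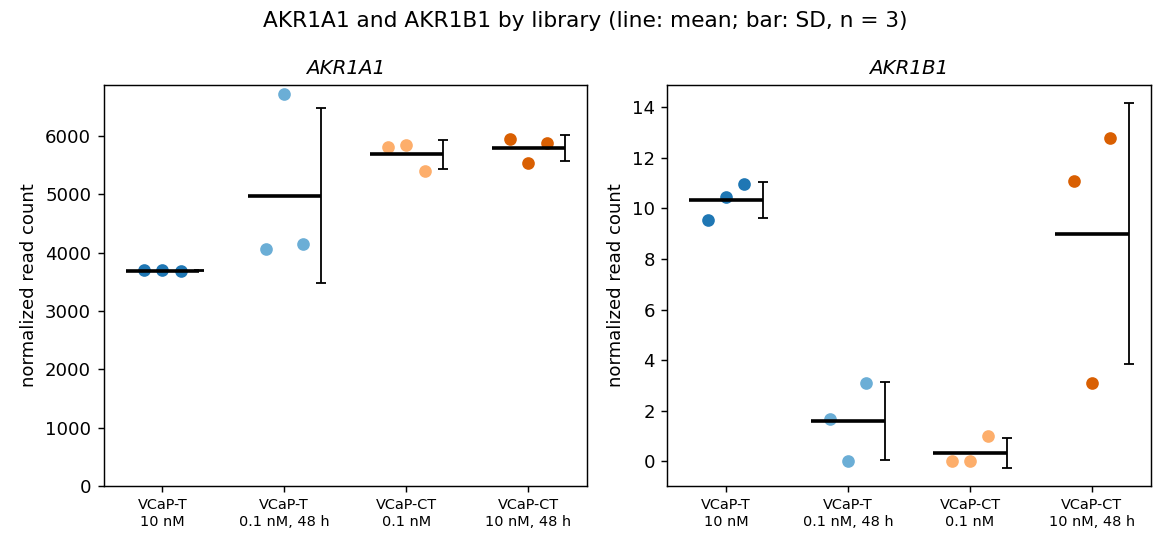
Normalized read counts (vertical axes, linear) of AKR1A1 and AKR1B1 in each of the 3 libraries (points) of the 4 groups, with the mean as a line and the SD as a bar. AKR1A1 lies at 3686 to 3698 in VCaP-T cells at 10 nM T and at 5402 to 5952 in VCaP-CT cells, whereas AKR1B1 stays at or below 3.09 in both groups at 0.1 nM T.

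The direction of the members differed across the comparisons. On depletion AKR1C3 alone rose and none fell, on rechallenge AKR1B1 rose and AKR1C3 fell, and between the lines in their own media AKR1A1 was higher and AKR1B1, AKR1C1, AKR1C2 and AKR1C3 were lower in VCaP-CT cells. Of all tested genes, 6.15% rose and 3.83% fell on depletion, 7.07% rose and 7.19% fell on rechallenge, and 14.8% were higher and 15.7% lower in VCaP-CT cells. Without the library that stood apart 14.4% rose and 12.6% fell on depletion, 36.6% passed on rechallenge (17.6% fell), and 26.7% were higher and 26.7% lower in VCaP-CT cells, while the members that passed were those just named. None of the 5 tested members passed the test of a difference between the lines in the response to T (adjusted p from 0.33 to 0.53), which 0.965% of all genes passed. Without the library that stood apart 7.38% of all genes passed it and still none of these members (adjusted p from 0.068 to 0.43).

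**Figure D4:**
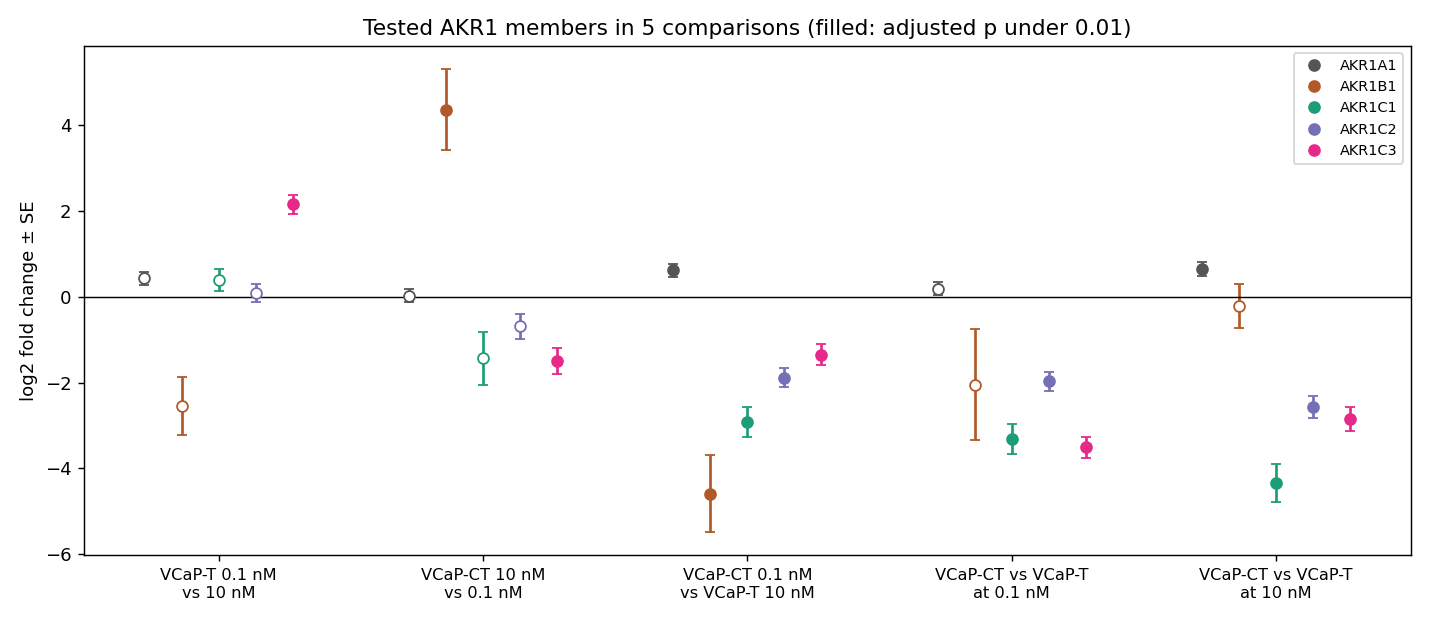
Log2 fold change (vertical axis, bars are the SE) of the 5 tested members in 5 comparisons (horizontal axis), with filled points where the adjusted p was under 0.01. AKR1C3 is at 2.16 on depletion and at −1.50 on rechallenge, and the AKR1C genes lie below 0 in all 3 comparisons of the lines.

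Over the 12 libraries, AKR1C1 ran with AKR1C2 (r = 0.948 of log2 CPM, counts per M fragments), AKR1C1 with AKR1C3 (r = 0.912) and AKR1C2 with AKR1C3 (r = 0.900). The same r was −0.01 between AKR1B1 and AKR1C1 and −0.64 between AKR1A1 and AKR1C2. These values share libraries and the 4 groups, and are descriptions only. Of all tested genes, AUH (r = 0.996), WIPI2 (r = 0.995) and CHMP1B (r = 0.994) had the patterns most like that of AKR1C3. Those most like AKR1C1 were THNSL1 (r = 0.993), ASH2L (r = 0.990) and HNF4G (r = 0.988), and those most like AKR1C2 were NDUFA5P11 (r = 0.991), ADORA1 (r = 0.987) and TDH (r = 0.987). For AKR1A1 they were UBB (r = 0.990), DHPS (r = 0.985) and PCP4 (r = 0.983), and for AKR1B1 an unnamed gene (ENSG00000216285, r = 0.958), RAB35 (r = 0.957) and DERL1 (r = 0.953). From the first to the last AKR1C start on chromosome 10, the annotation held 9 genes, of which AKR1C1, AKR1C2 and AKR1C3 alone were tested, and AKR1C5P and AKR1C8 had no read pair.

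The other genes around these enzymes moved in both directions, and each count below is to be read against the shares of all tested genes that passed, which were 9.97% on depletion, 14.3% on rechallenge and 30.6% between the lines in their own media (27.1%, 36.6% and 53.4% without the library that stood apart). Of 22 tested genes of androgen synthesis and inactivation, 6 rose and 0 fell on depletion (27.3%), 5 rose and 2 fell on rechallenge (31.8%), and 3 were higher and 5 lower in VCaP-CT cells in the own media (36.4%). Without that library 8 rose and 2 fell on depletion (45.5%). Like AKR1C3, HSD17B14, an oxidative 17-beta-hydroxysteroid dehydrogenase, rose on depletion (1.13 ± 0.15 on the log2 scale, 1.00 ± 0.13 without the library) and fell on rechallenge (−1.29 ± 0.17). HSD17B6 did so too (1.02 ± 0.16, 0.76 ± 0.08 without the library, and −0.89 ± 0.15). More genes of this list went the other way on rechallenge, where 5 of the 22 rose and 2 fell. UGT2B17, which couples androgens to glucuronic acid, rose by 3.34 ± 0.48 on depletion (3.12 ± 0.43 without the library). Of 13 tested prostaglandin genes, 2 rose and 4 fell on depletion (46.2%), 4 rose and 0 fell on rechallenge (30.8%), and 0 were higher and 5 lower in VCaP-CT cells (38.5%). Without the library 2 rose and 6 fell on depletion (61.5%). HPGD, which degrades prostaglandins, had a log2 fold change of −0.77 ± 0.09 on depletion (−0.86 ± 0.06 without the library), 2.07 ± 0.10 on rechallenge and −5.45 ± 0.11 between the lines.

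Of 29 tested targets of NRF2, the oxidative stress regulator, 2 rose and 1 fell on depletion (10.3%, close to the 9.97% of all genes), 6 rose and 0 fell on rechallenge (20.7%), and 3 were higher and 9 lower in VCaP-CT cells (41.4%). Without the library 3 rose and 8 fell on depletion (37.9%). NQO1 (−2.69 ± 0.15) and GPX2 (−3.51 ± 0.13) were lower in VCaP-CT cells in the own media, as were the tested AKR1C genes, whereas 3 of the 29 were higher. Of 15 tested genes of aldehyde and polyol metabolism, 1 rose and 2 fell on depletion (20.0%), 4 rose and 2 fell on rechallenge (40.0%), and 2 were higher and 8 lower in VCaP-CT cells (66.7%), among them SORD, the enzyme that follows AKR1B1 in the polyol pathway (−0.66 ± 0.07). Without the library 3 rose and 5 fell on depletion (53.3%). Of 10 tested bile acid genes, 2 rose and 1 fell on depletion, also without the library, 2 rose and 0 fell on rechallenge, and 2 were higher and 3 lower in VCaP-CT cells. Those are 3, 2 and 5 of the 10 genes. Of 7 tested other aldo-keto reductases, 14.3% passed on depletion, 14.3% on rechallenge and 42.9% in the own media. KCNAB1 fell on depletion (−0.66 ± 0.15, −0.57 ± 0.15 without the library), KCNAB2 fell on rechallenge (−1.43 ± 0.21), and KCNAB1, KCNAB2 and AKR1E2 were lower in VCaP-CT cells (−0.64 ± 0.15, −1.38 ± 0.18 and −1.13 ± 0.17). The medians of all 19162 genes in the 3 comparisons were 0.04, −0.02 and 0.00 on the log2 scale, against 0.23, 0.11 and −0.07 for androgen metabolism and 0.04, 0.17 and −0.17 for the NRF2 targets, whose depletion median was −0.07 without the library.

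Without the library that stood apart, the counts on rechallenge and between the lines in their own media also changed, apart from that of the other aldo-keto reductases in the own media. On rechallenge 8 rose and 2 fell for androgen metabolism (45.5%), 8 and 1 for prostaglandins (69.2%), 14 and 0 for NRF2 targets (48.3%), 8 and 3 for aldehyde and polyol metabolism (73.3%), 3 and 2 of the 10 for bile acids and 1 and 2 for other aldo-keto reductases (42.9%). In the own media 5 were higher and 7 lower in VCaP-CT cells for androgen metabolism (54.5%), 1 and 8 for prostaglandins (69.2%), 5 and 13 for NRF2 targets (62.1%), 2 and 11 for aldehyde and polyol metabolism (86.7%), 3 and 5 for bile acids (80.0%) and 0 and 3 for other aldo-keto reductases (42.9%).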

How the data were processed

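The authors prepared TruSeq stranded poly(A) libraries, sequenced them as 75-base read pairs, aligned them with STAR 2.5.4b to GRCh38 and counted read pairs per gene with featureCounts 1.6.2 on Gencode 28. The deposited values used here are these raw counts per gene, per the file headers counted without a strand option and without multi-mapping pairs. A deposited table normalized with DESeq2 was not used. Counts of 12 libraries (30.2 to 40.8 M each) were fitted over 4 groups with edgeR 4.0.16 (R 4.3.3; TMM, filterByExpr, quasi-likelihood test, Benjamini-Hochberg adjustment over 19162 genes), without a replicate block. Errors of fold changes are the fold change divided by the square root of F. The fit was tested on simulated counts. Alternatives were another scaling, no filter, DESeq2 1.42.0, a replicate block, fits to the groups compared and each library left out. All 8 members were named, with the 3 tested genes most correlated with each, and of other lists up to 4 genes of smallest p per comparison. Members and lists were chosen with earlier results of these data known. Some luminal prostate markers are not reported here.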

Additional observations from a re-analysis of the deposited data

How the results depend on the processing

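AKR1C3 was called on depletion, and AKR1C1, AKR1C2 and AKR1C3 in the 3 comparisons of the lines, under each alternative run. The number of members called on rechallenge was 1, and 0 to 1 with 1 library left out. Over 599 further fold changes, 567 kept their direction and their side of the threshold, 25 no longer passed, 3 newly passed and 4 changed sign, all of the last being far from the threshold: AKR1A1 on rechallenge (−0.011 to 0.057 with 1 library left out, negative without VCaP-CT at 0.1 nM T replicate 3), AKR1B1 between the lines at 10 nM T (−0.59 to 0.21, positive without rechallenged replicate 2) and AKR1C2 on depletion (−0.028 to 0.21, negative without depleted replicate 2 or replicate 3 of VCaP-T at 10 nM T). The cause was not tested. Among the 599 are fold changes of the AKR1C sum, set against those of AKR1C3. The comparison of rechallenged VCaP-CT with depleted VCaP-T cells is also among them. Repeating the AKR1C sum, the list counts and the shares of all genes without the library that stood apart was chosen after seeing the data. Over all genes, 602 were called on depletion, 219 with only the groups compared in the fit. AKR1B1 (depletion, rechallenge, lines at 0.1 nM T) and AKR1C1 (rechallenge) gave no value there, since fewer genes passed the filter. Same-numbered libraries did not deviate together (correlations −0.17 to 0.05 over 18 pairs), so the numbers were not read as pairs. With the replicate block, 1, 1, 3, 3 and 3 members were called in the 5 comparisons and 507 genes on depletion. Depth limits AKR1B1, AKR1B10, AKR1C4 and AKR1D1, with 0 to 12 read pairs per library, and AKR1C1 in VCaP-CT cells, with 1 to 9.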

Other observations

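Around the AKR1C cluster, 55 genes other than the AKR1C members lay within 1000000 bases on either side, of which 14 were tested, a window chosen after the data were seen. Between the lines in their own media, 0 of them were higher and 4 lower in VCaP-CT cells (AKR1E2, NET1, LASTR and ENSG00000231483), with a median log2 fold change of −0.35 against 0.00 over all genes. The share past the test was 28.6% in this window and 30.6% over all genes, while 15.7% of all genes were lower. At 0.1 nM T and at 10 nM T, 0 were higher and 5 lower in each comparison (35.7%). Over all genes 29.5% and 25.2% passed there, and 16.4% and 13.2% were lower.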
